A study of Mus musculus with 4 samples.

Results

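The genes described are 35 targets of the tumour suppressor p53 and genes of the DNA damage response, out of 24658 genes and transcripts tested. They were chosen by name, with earlier results of these data known. The choice took regulators of p53, known p53 targets, sestrins, damage sensing kinases and mediators, and enzymes of base excision repair. All 35 were measured. The cells were C3H10T1/2, a mouse embryo fibroblast line, transformed in culture before the comparison. Both groups shared that transformation: MCA, a polycyclic carcinogen (2.5 µg/ml for 2 days), then the tumour promoter TPA (100 ng/ml, given over 2 weeks), then 4 weeks without TPA. In the untreated group (n = 2) nothing further was added, and in the other group (n = 2) the transformed cells were exposed to 0.25 mM diethyl maleate (DEM), an electrophile that depletes glutathione. The sources used here do not state how long DEM was applied, the labels name no clone, and they describe the cultures as scored for transformed foci before the exposure. The question for these genes is which of them differed in mRNA level between transformed cells with and without DEM.

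p53 is a transcription factor that is held low by Mdm2, a ubiquitin ligase that p53 itself switches on, and by its relative Mdm4. After DNA damage the kinases Atm and Atr, acting through Chek2 and Chek1, phosphorylate p53 and release it from Mdm2, so the control of p53 is largely at the protein level. Its targets arrest the cell cycle, limit growth signalling, repair DNA or promote cell death, and many of them also respond to other stresses without p53.

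Each sample was hybridised to 1 one-colour array, and between 47.3% and 52.1% of all 62976 spots, control spots included, were well above background. The 75th percentile of the intensity was 701.3 and 747.2 for untreated samples, and 449.9 and 412.5 for DEM samples. Levels below are log2 intensities minus that percentile, so a level compares arrays for 1 gene and not 1 gene with another. All 4 arrays lay on 1 slide and were read in 1 scan, with each group in its own row of the slide, so slide row and treatment cannot be told apart. A pair of genes that electrophiles are known to raise rose with DEM: Gclc, a subunit of the enzyme that limits glutathione synthesis, by 12.2-fold (adjusted p = 0.0006498, limma) and Hmox1, haem oxygenase, by 20.5-fold (adjusted p = 0.001208). All 11 fibroblast markers were measured, 7 of them lower with DEM, with a summed linear level (intensity over the 75th percentile) of 1550 and 1610 in untreated and 841 and 1250 in DEM samples. The 3 measured markers of skeletal muscle and 3 of smooth muscle also had lower sums with DEM (35.8 and 44.4 against 2.76 and 3.24, and 288 and 327 against 30.6 and 33.3), while 5 skeletal muscle markers (Ckm, Myf5, Myh3, Myod1 and Myog) and the smooth muscle marker Cnn1 did not clear the background. The 5 measured of 8 markers of bone and cartilage summed to 10.3 and 10.8 in untreated and 3.38 and 3.50 in DEM samples, with 3 lower (Col2a1, Alpl and Bglap), and Tek, the 1 measured of 5 endothelial markers, was also lower (adjusted p = 0.0114). Of 6 macrophage markers, Adgre1, Csf1r, Ptprc and Itgam were not well above background, while Lyz2 (log2 change -1.85, adjusted p = 0.0141) and Cd68 (0.28, adjusted p = 0.441) were measured on all 4 arrays. The 3 measured of 6 epithelial markers summed to 0.206 and 0.282 against 0.304 and 0.204, and the 3 measured of 5 adipocyte markers to 17.6 and 15.5 against 14.9 and 15.2. The part of these marker differences in the results below was not tested, and in such bulk samples fewer cells of a type and less RNA per cell cannot be told apart.

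With DEM, 13 of the 35 genes rose, 4 fell and 18 did not pass an adjusted p of 0.05. Over all genes tested, 15.5% rose (3812) and 11.8% fell (2900). The share of the 35 that rose was above this background, and the share that fell was close to it. Because the 35 genes were chosen with earlier results of these data known, these shares are a description and not a test. The median log2 change was 0.60 over the 35 genes and 0.16 over all genes, and 26 of the 35 changes were above 0. Both DEM samples lay beyond both untreated samples in 30 of the 35 genes, against 68.5% of all genes. The genes that rose were Mdm2, Plk2, Plk3, Gadd45a, Trp53inp1, Phlda3, Ei24, Aen, Eda2r, Rrm2b, Ercc5, Atr and Ogg1, and those that fell were Btg2, Sesn1, Sesn3 and Perp. Whether the samples of a group are separate cultures is not stated in the labels; the p-values reflect the spread among these 4 samples alone, which may be technical. The calls leaned on both untreated samples: fewer of the 35 genes, and fewer of all genes, passed without untreated 1 or untreated 2. Such a fit takes its spread from the DEM pair alone. All 17 called genes kept their direction in both fits. When the arrays were scaled to the added spike-in RNA instead of the 75th percentile, only Gadd45a passed (adjusted p = 0.022), against 1.44% of all genes higher and 3.48% lower. The other 16 kept their direction on that scale, with adjusted p from 0.078 to 1. Other scalings moved the split of all calls from 3812 higher and 2900 lower to 2909 (11.8%) and 3296 (13.4%) with quantile normalization, 2529 (10.3%) and 3666 (14.9%) with cyclic loess and 354 and 859 with spike-in scaling. The counts for the 35 genes were 12 and 4 with quantile normalization, 11 and 4 with cyclic loess, and 1 and 0 with spike-in scaling.

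**Figure D1:**
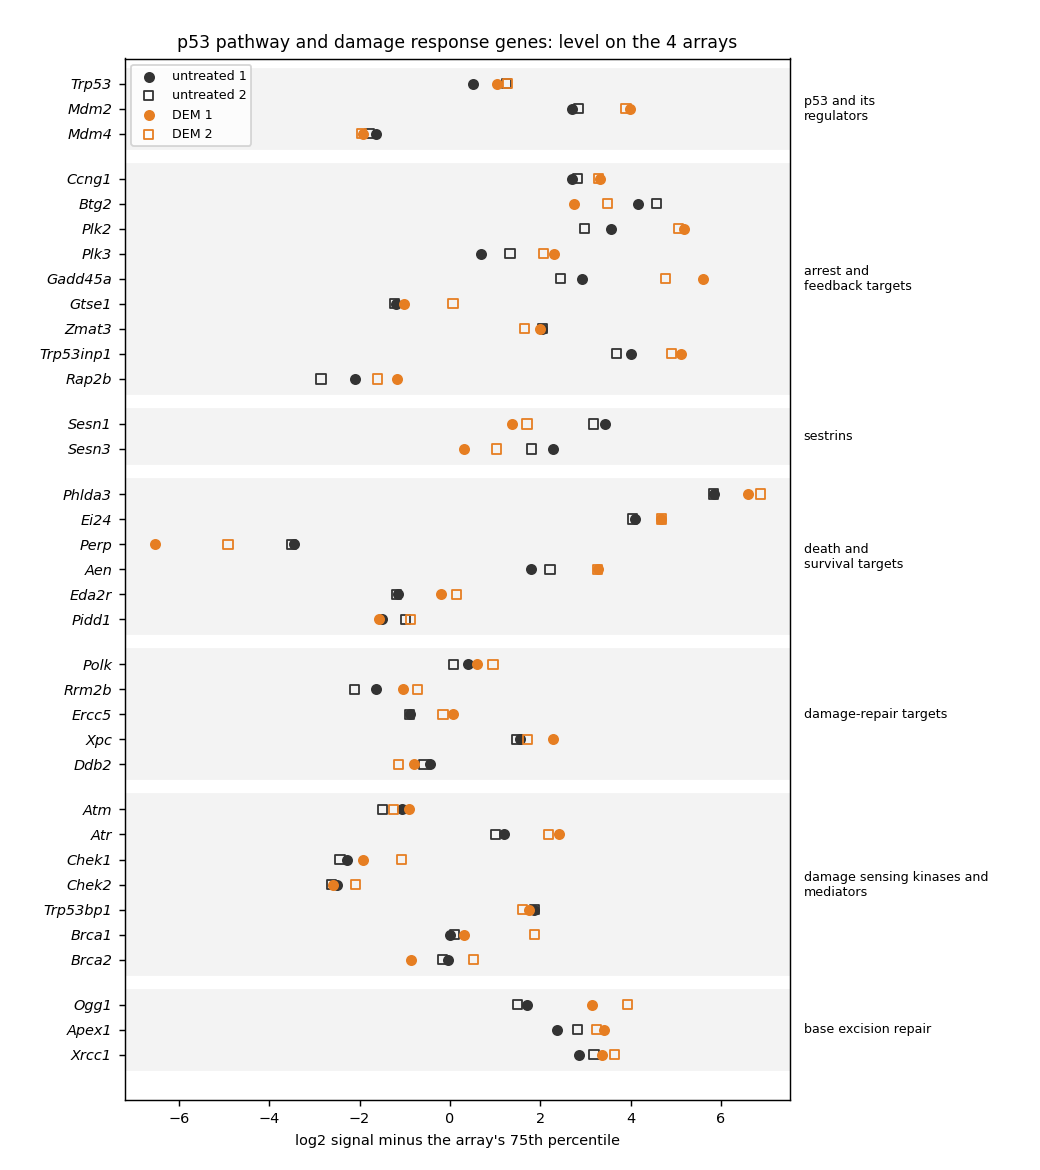
Level of each of the 35 genes (log2 intensity minus the array's 75th percentile, x axis) on each of the 4 arrays, grouped by role; each point is 1 array. The DEM points of Gadd45a (5.61 and 4.77) lie to the right of its untreated points (2.92 and 2.45), and those of Sesn1 (1.38 and 1.71) lie to the left (3.43 and 3.17).

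Because p53 acts through a recurring pair of decamers, the promoters of the genes were searched for 1 such decamer. Promoter windows, from 250 bases before the annotated start to 50 after it, came from RefSeq on GRCm38.p6 for 29 of the 35 genes (34 windows). The p53 decamer consensus was searched on both strands by its published pattern, which reads the same on either strand. It was present in 11 of the 34 windows, in 10 genes (Aen, Ccng1, Ei24, Gadd45a, Gtse1, Mdm2, Polk, Rap2b, Sesn1 and Trp53), and in 8.36% of all 32851 windows. A match is a description of letters and not a bound site. Shown here are the 250 bases before the start for the 5 genes that passed the test and hold the decamer within them. The decamer is in capitals. Ccng1, Gtse1, Polk, Rap2b and Trp53 hold the decamer in a window too and did not pass. Whether p53 had a part in any of the changes was not tested. The windows lie upstream of the annotated starts, at chr10:117710759-117711008 (minus strand) for Mdm2, chr6:67037408-67037657 (minus strand) for Gadd45a, chr7:78895808-78896057 (plus strand) for Aen, chr9:36797335-36797584 (minus strand) for Ei24 and chr10:41887189-41887438 (plus strand) for Sesn1. In Sesn1 and Aen the window belongs to the second of 2 annotated starts, and the same Aen decamer lies 11 bases after the first start, so it counts in both Aen windows. Of these genes, 4 rose while Sesn1 fell.
Mdm2: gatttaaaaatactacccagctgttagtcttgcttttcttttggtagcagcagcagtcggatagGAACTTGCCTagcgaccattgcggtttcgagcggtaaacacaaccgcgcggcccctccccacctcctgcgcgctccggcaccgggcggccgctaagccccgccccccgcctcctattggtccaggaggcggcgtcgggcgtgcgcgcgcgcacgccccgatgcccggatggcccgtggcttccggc
Gadd45a: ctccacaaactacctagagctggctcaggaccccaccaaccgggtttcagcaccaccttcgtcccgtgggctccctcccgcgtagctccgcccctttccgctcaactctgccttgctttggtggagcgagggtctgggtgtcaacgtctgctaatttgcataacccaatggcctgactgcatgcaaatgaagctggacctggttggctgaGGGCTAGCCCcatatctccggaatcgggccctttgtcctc
Aen: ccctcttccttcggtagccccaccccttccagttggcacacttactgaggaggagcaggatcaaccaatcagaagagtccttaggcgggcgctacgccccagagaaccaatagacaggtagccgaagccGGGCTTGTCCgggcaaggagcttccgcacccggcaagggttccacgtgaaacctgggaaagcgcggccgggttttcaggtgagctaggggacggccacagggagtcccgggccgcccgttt
Ei24: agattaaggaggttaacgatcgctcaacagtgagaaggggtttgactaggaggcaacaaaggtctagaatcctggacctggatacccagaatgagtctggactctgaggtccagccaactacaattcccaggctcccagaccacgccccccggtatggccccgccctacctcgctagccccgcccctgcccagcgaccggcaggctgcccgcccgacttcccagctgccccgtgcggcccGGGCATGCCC
Sesn1: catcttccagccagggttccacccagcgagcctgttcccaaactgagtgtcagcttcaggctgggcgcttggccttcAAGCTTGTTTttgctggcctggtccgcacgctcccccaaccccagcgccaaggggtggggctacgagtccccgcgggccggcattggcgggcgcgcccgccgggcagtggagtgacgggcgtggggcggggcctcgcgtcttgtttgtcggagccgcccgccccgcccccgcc

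p53 and its regulators came first. The level of Trp53, the gene for p53 itself, was 0.52 and 1.25 in untreated and 1.03 and 1.27 in DEM samples. The groups overlapped, and the difference of 0.26 ± 0.28 (log2, SE; 95% interval -0.43 to 0.95) did not pass (adjusted p = 0.524). Mdm2 was 2.70 and 2.84 in untreated and 3.98 and 3.90 in DEM samples, so both DEM samples were higher by about the same amount. Mdm2 rose 2.25-fold (log2 change 1.17 ± 0.16, adjusted p = 0.00598), and a second probe gave a log2 change of 1.18. The Mdm2 call was lost without untreated 1 (adjusted p = 0.0601) or untreated 2 (0.0514). Mdm4, which binds p53 and masks its activation domain, had a log2 change of -0.23 ± 0.22 and did not pass (adjusted p = 0.482), with probes between -0.71 and -0.04.

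Of 9 targets linked to arrest of the cell cycle or feedback on p53, 4 rose, 1 fell and 4 did not pass. Gadd45a, a small stress protein that binds PCNA and slows the cycle at G2, was 2.92 and 2.45 in untreated and 5.61 and 4.77 in DEM samples. All DEM values lay more than 1 log2 unit above all untreated ones, and Gadd45a rose 5.70-fold (2.51 ± 0.32, adjusted p = 0.00452), the largest rise among the 35. Plk2, a polo-like kinase induced by stress, was 3.57 and 2.99 in untreated and 5.19 and 5.06 in DEM samples. It rose 3.61-fold (1.85 ± 0.23, adjusted p = 0.00419), and the groups were well apart. Its relative Plk3 was 0.68 and 1.33 in untreated and 2.31 and 2.08 in DEM samples, without overlap, and rose 2.28-fold (1.19 ± 0.26, adjusted p = 0.0229). Trp53inp1, a nuclear protein that p53 induces and that in turn promotes p53 phosphorylation, was 4.01 and 3.69 against 5.12 and 4.90. It rose 2.23-fold (1.16 ± 0.19, adjusted p = 0.00907), with both DEM samples above both untreated ones.

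Btg2, an antiproliferative gene first known as a p53 target, moved the other way. Its level was 4.18 and 4.57 in untreated and 2.75 and 3.49 in DEM samples, so the groups did not overlap, although the DEM samples differed by 0.75 from each other. Btg2 fell by 1.25 ± 0.29 (2.38-fold lower, adjusted p = 0.0256), and its kept probes ranged from -1.25 to -0.98. Ccng1 (cyclin G1) was 2.70 and 2.82 in untreated and 3.33 and 3.28 in DEM samples, without overlap, and its change of 0.55 ± 0.16 did not pass (adjusted p = 0.0549). Zmat3, an RNA-binding zinc finger protein, had a change of -0.22 ± 0.20 (adjusted p = 0.450). Rap2b, a small GTPase of the Ras family, had a change of 1.10 ± 0.33 (adjusted p = 0.0566) on its brightest probe and -0.55 on another, the only 1 of the 20 genes with several kept probes in which probes disagreed in sign. Rap2b passed with the replicate number as a block (adjusted p = 0.0173), with normexp (0.0195), with all 4 arrays required above background (0.0419) and without DEM 2 (0.0266). Ccng1 passed without a filter on dim probes (0.0212). Gtse1, a microtubule-associated protein made in G2 that exports p53 from the nucleus, had a change of 0.74 ± 0.37 (adjusted p = 0.186) that rested on 1 DEM sample (-1.01 and 0.07, against -1.18 and -1.22). Among the genes that passed here, Gadd45a and Plk2 kept their calls without either untreated sample. Without untreated 1 the call was lost for Plk3 (adjusted p = 0.125) and Btg2 (0.0774), and without untreated 2 for Btg2 (0.1515) and Trp53inp1 (0.0785).

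Sesn1 and Sesn3, sestrins that restrain the growth kinase complex mTORC1, both fell. The remaining sestrin, Sesn2, is not among the 35 genes and had a change of 0.30 ± 0.22 that did not pass (adjusted p = 0.361). Sesn1 was 3.43 and 3.17 in untreated and 1.38 and 1.71 in DEM samples, more than 1 log2 unit apart. It fell by 1.76 ± 0.20 (3.38-fold lower, adjusted p = 0.00364), and its probes ranged from -2.15 to -1.76. Sesn3 was 2.28 and 1.80 in untreated and 0.30 and 1.03 in DEM samples, also without overlap. It fell by 1.37 ± 0.30 (2.59-fold lower, adjusted p = 0.0232), and the second probe gave -1.25. Sesn1 kept its call without either untreated sample, and Sesn3 lost it without untreated 1 (adjusted p = 0.1375) and untreated 2 (0.0746).

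**Figure D2:**
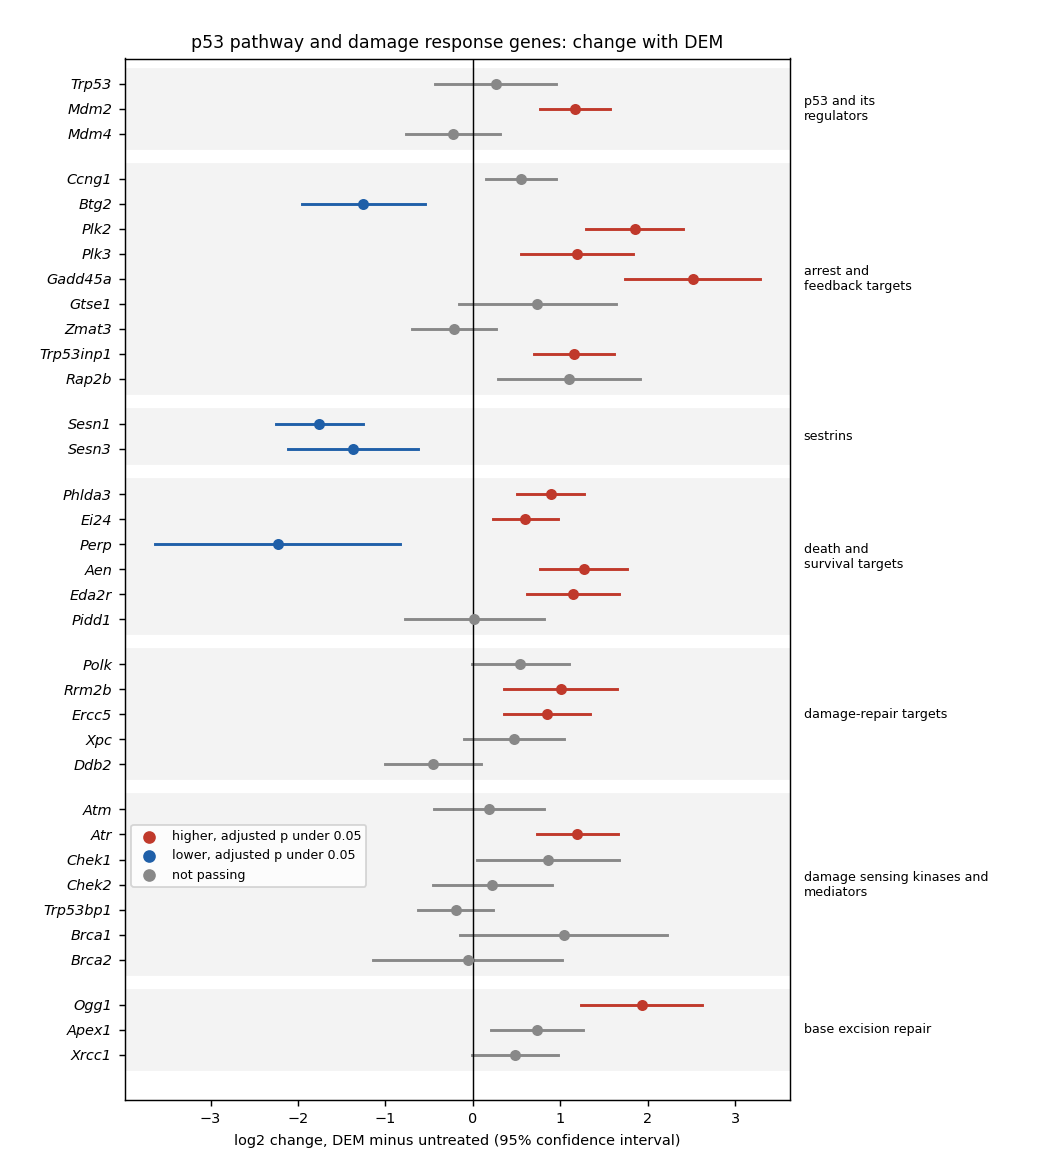
Log2 change with DEM (DEM minus untreated, x axis) of the 35 genes by role, as the limma estimate with its 95% confidence interval. Red marks genes that rose, blue genes that fell and grey genes that did not pass; 13 are red and 4 are blue, and Perp is drawn at its fitted value although its level with DEM was not well above background.

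Of 6 targets tied to cell death or survival, 4 rose, 1 fell and 1 did not pass. Aen, an exonuclease that promotes apoptosis, was 1.79 and 2.22 in untreated and 3.27 in both DEM samples. The DEM samples were nearly identical and clear of the untreated ones, and Aen rose 2.40-fold (1.26 ± 0.20, adjusted p = 0.00904). Eda2r, a death-domain-lacking receptor of the TNF family for ectodysplasin A2, was -1.14 and -1.19 in untreated and -0.19 and 0.14 in DEM samples. It rose 2.20-fold (1.14 ± 0.21, adjusted p = 0.0144), with no overlap. Phlda3, a pleckstrin homology protein that blocks the survival kinase Akt, was 5.84 in both untreated samples and 6.59 and 6.87 in DEM samples. It rose 1.85-fold (0.89 ± 0.16, adjusted p = 0.0117), again with the groups apart. Ei24, a protein of the endoplasmic reticulum that takes part in autophagy, was 4.10 and 4.05 against 4.67 and 4.69 and rose 1.52-fold (0.60 ± 0.15, adjusted p = 0.0326).

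Perp, a membrane protein of desmosomes that p53 induces during apoptosis, was -3.46 and -3.51 in untreated samples and not well above background in DEM samples (-6.53 and -4.91). Perp was therefore at least 1.66-fold lower with DEM (adjusted p = 0.0354), and this call was lost with normexp background correction (log2 change -0.14, adjusted p = 0.373), without a filter on dim probes (0.0585) and with the mean of all probes (0.0512). Pidd1, listed on the array under its older name Lrdd, is a scaffold that activates caspase-2. On its brightest probe it was -1.51 and -0.98 in untreated and -1.58 and -0.87 in DEM samples. The groups overlapped completely there, with a change of 0.02 ± 0.33 (adjusted p = 0.972). Its other kept probes gave 0.65 and 0.53, and the mean of all probes 0.40, which did not pass either (adjusted p = 0.331, limma). Aen kept its call without untreated 2 and lost it without untreated 1 (adjusted p = 0.0686), while the other 4 lost it without either: Phlda3 (0.0883 without untreated 1 and 0.0929 without untreated 2), Ei24 (0.162 and 0.2016), Perp (0.158 and 0.159) and Eda2r (0.101 and 0.115). The Ei24 call was also lost with quantile normalization (0.114), cyclic loess (0.118) and no variance trend (0.0725).

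Of 5 targets that repair or tolerate damage, 2 rose and 3 did not pass. Rrm2b, the p53-inducible subunit of ribonucleotide reductase that supplies nucleotides outside S phase, was -1.64 and -2.11 in untreated and -1.03 and -0.71 in DEM samples. The groups did not overlap, and Rrm2b rose 2.00-fold (1.00 ± 0.26, adjusted p = 0.0383). Ercc5, the endonuclease XPG that cuts on the 3′ side of a lesion in nucleotide excision repair, was -0.87 and -0.90 in untreated and 0.07 and -0.15 in DEM samples. It rose 1.80-fold (0.85 ± 0.20, adjusted p = 0.0288), without overlap. The damage sensors of the same repair pathway, Xpc and Ddb2, had changes of 0.47 ± 0.24 (adjusted p = 0.184) and -0.46 ± 0.23 (adjusted p = 0.178). Polk, a translesion DNA polymerase, had a change of 0.54 ± 0.22 (adjusted p = 0.125). Both calls were lost without untreated 1 (adjusted p = 0.103 for Rrm2b and 0.165 for Ercc5) and untreated 2 (0.2525 and 0.184), and Rrm2b also without DEM 2 (0.0569) and with cyclic loess (0.0546), while Xpc passed without DEM 2 (0.0279).

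Of 7 damage sensing kinases and mediators, 1 rose and 6 did not pass. Atr, the kinase that senses single-stranded DNA at stalled forks, was 1.19 and 1.01 in untreated and 2.41 and 2.18 in DEM samples. The groups lay about 1 log2 unit apart, and Atr rose 2.29-fold (1.19 ± 0.19, adjusted p = 0.0087), with a second probe at 0.95. Its call was lost without untreated 1 (adjusted p = 0.0576) or untreated 2 (0.0809). Atm, the kinase that responds to double-strand breaks, was -1.05 and -1.49 against -0.91 and -1.26, with overlap and a change of 0.19 ± 0.26 (adjusted p = 0.626). Chek2, the kinase downstream of Atm, had a change of 0.22 ± 0.28 (adjusted p = 0.581). Trp53bp1, which binds chromatin beside breaks, had a change of -0.19 ± 0.17 (adjusted p = 0.444, limma), and a second kept probe gave -0.68.

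In Brca1, Brca2 and Chek1 the DEM samples differed from each other more than the untreated ones did. Brca1, a mediator of repair by homologous recombination, was 0.01 and 0.10 in untreated and 0.31 and 1.87 in DEM samples. Its change was 1.04 ± 0.48 (adjusted p = 0.162), and 1 DEM sample carried most of it. Brca2, which acts with Brca1 in the repair of double-strand breaks, was -0.05 and -0.17 in untreated and -0.86 and 0.53 in DEM samples, so the untreated values lay between the DEM ones (change -0.06 ± 0.44, adjusted p = 0.932). Chek1, the kinase downstream of Atr, was -2.28 and -2.43 in untreated and -1.92 and -1.07 in DEM samples (change 0.86 ± 0.33, adjusted p = 0.106). Chek1 passed with normexp (adjusted p = 0.0425). Without DEM 1 the log2 change was 1.815 for Brca1, 1.273 for Gtse1 and 1.283 for Chek1, and without DEM 2 it was 0.258, 0.198 and 0.435. For Brca2 it was 0.635 without DEM 1 and -0.753 without DEM 2. Such a fit leaves out the spread between the DEM samples. As background, the mRNAs of Brca1, Brca2, Chek1 and Gtse1 are known to be highest in dividing cells. In a list of 33 genes of S phase to mitosis, all 33 were higher in DEM 2 than in DEM 1, with a median difference of 1.40 (log2), against 0.04 over all genes, while between the untreated samples the median was -0.04 (15 of 33 higher in untreated 2). The part of this difference in the results for Brca1, Brca2, Chek1 and Gtse1 was not tested.

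**Figure D3:**
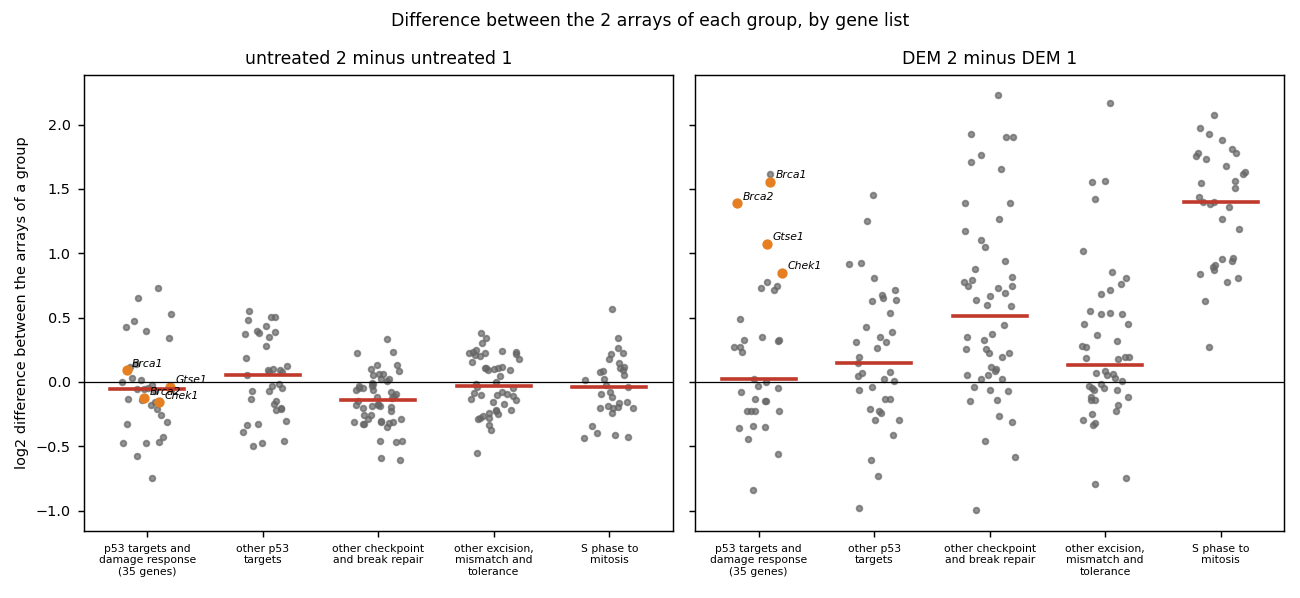
Difference between the 2 arrays of a group (log2, array 2 minus array 1, y axis) for the 35 genes and 4 related lists, with untreated arrays in the left panel and DEM arrays in the right one; points are genes, spread sideways only for legibility, and red bars are medians. Orange marks Brca1 (1.56), Brca2 (1.39), Gtse1 (1.07) and Chek1 (0.85), which differ between the DEM arrays and lie near 0 between the untreated ones. Among the 35 genes, Perp, which is not marked, differed most between the DEM arrays (1.615), and Gadd45a lay the other way (-0.841). The median of the 35 in the right panel is 0.02. The S phase to mitosis list lies above 0 there, with a median of 1.40.

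Of 3 enzymes of base excision repair, which removes oxidised bases, 1 rose and 2 did not pass. Ogg1, the glycosylase that removes 8-oxoguanine, was 1.71 and 1.50 in untreated and 3.15 and 3.93 in DEM samples. Every DEM value was more than 1 log2 unit above every untreated one, and Ogg1 rose 3.81-fold (1.93 ± 0.28, adjusted p = 0.00699), with 3 probes between 1.80 and 1.96. Its call held without untreated 1 (adjusted p = 0.0429) and was lost without untreated 2 (0.0575). Apex1, the endonuclease that cuts the abasic site left by such a glycosylase, was 2.36 and 2.83 in untreated and 3.40 and 3.25 in DEM samples, without overlap, and did not pass (0.73 ± 0.21, adjusted p = 0.0513). Xrcc1, the scaffold for the ligation step, had a change of 0.48 ± 0.20 (adjusted p = 0.126). Apex1 passed without DEM 2 (adjusted p = 0.045), with normexp (0.0451), without a filter on dim probes (0.0416), with all 4 arrays required above background (0.0412) and with the replicate number as a block (0.0375).

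Other genes of the same pathways were counted for context. Among 37 other measured p53 targets there were 8 that rose, 8 that fell and 21 that did not pass, with a median log2 change of 0.29. Over all genes tested, 15.5% rose and 11.8% fell, with a median of 0.16. Slc19a2, a thiamine transporter (1.89, adjusted p = 0.00338), Abhd4, a lipase of the endocannabinoid pathway (1.10, adjusted p = 0.00447), and Ndrg1, a stress-induced protein (0.93, adjusted p = 0.0136), had the smallest p-values among those that rose. Fas, the death receptor, fell by 2.00 (adjusted p = 0.00632), Steap3, a metalloreductase, by 1.81 (0.0109) and Dram1, a lysosomal membrane protein, by 1.55 (0.00443). Fewer of these other targets, and fewer of all genes, passed in limma fits without untreated 1 or untreated 2.

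Of 52 measured other genes of checkpoints and double-strand break repair, 10 rose and 42 did not pass, with a median of 0.50; limma called 0 lower, with 3 lower at an unadjusted p under 0.05. Rad9a, part of the clamp that activates Atr, rose 3.37-fold (adjusted p = 0.00256), and Rbbp8, which starts the resection of breaks, rose by 1.65 on the log2 scale (0.00361). Rpa1, which coats single-stranded DNA, rose by 1.26 on its brightest probe (adjusted p = 0.00706) but by only 0.25 in the mean of its probes, which did not pass (0.379). Of 48 genes of excision, mismatch and tolerance repair, 11 rose, 6 fell and 31 did not pass. Among those that rose, the smallest p-values were those of Gtf2h1, a TFIIH subunit (1.52, adjusted p = 0.00296), Pcna, the sliding clamp (1.14, 0.00572), and Ercc8, of transcription-coupled repair (1.22, 0.0068). Mutyh, the glycosylase that removes adenine opposite 8-oxoguanine, was 7.79-fold lower (log2 change -2.96, adjusted p = 0.00447), opposite in direction to Ogg1. Msh3, a mismatch sensor, and Ercc6, of transcription-coupled repair, fell by 1.32 (0.00594) and 1.59 (0.00962). Of the 33 genes of S phase to mitosis, 3 rose, Mcm7 (1.18, adjusted p = 0.00918) and Mcm3 (1.17, 0.0307), subunits of the replicative helicase, and Cdt1 (1.75, 0.0133), which loads it, and 30 did not pass. The count of lower calls was 0 with limma, and 1 at an unadjusted p under 0.05. Without DEM 1 the count rose to 21 higher for S phase to mitosis and 27 for checkpoints and break repair, and without DEM 2 the S phase to mitosis list had 3 higher and 14 lower. Without untreated 1 or untreated 2, calls became fewer for checkpoints and break repair, for excision repair and for S phase to mitosis, and also over all genes.

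**Figure D4:**
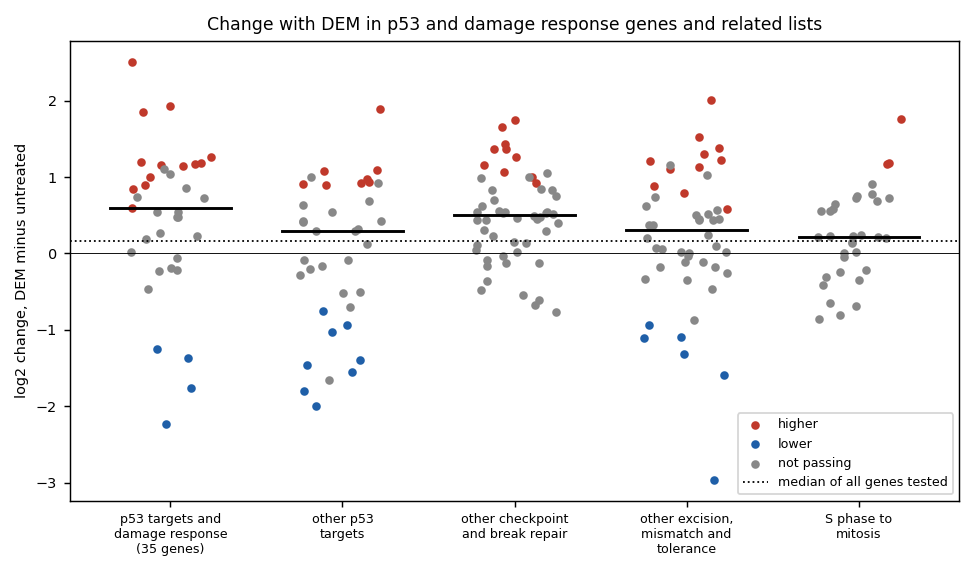
Log2 change with DEM (y axis) of the 35 genes and of 4 related lists, 1 point per measured gene, spread sideways only for legibility; black bars are list medians and the dotted line is the median of all genes. The medians are 0.60 for the 35 genes, 0.29, 0.50, 0.30 and 0.22 for the other lists, and 0.16 for all genes.

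**Figure D5:**
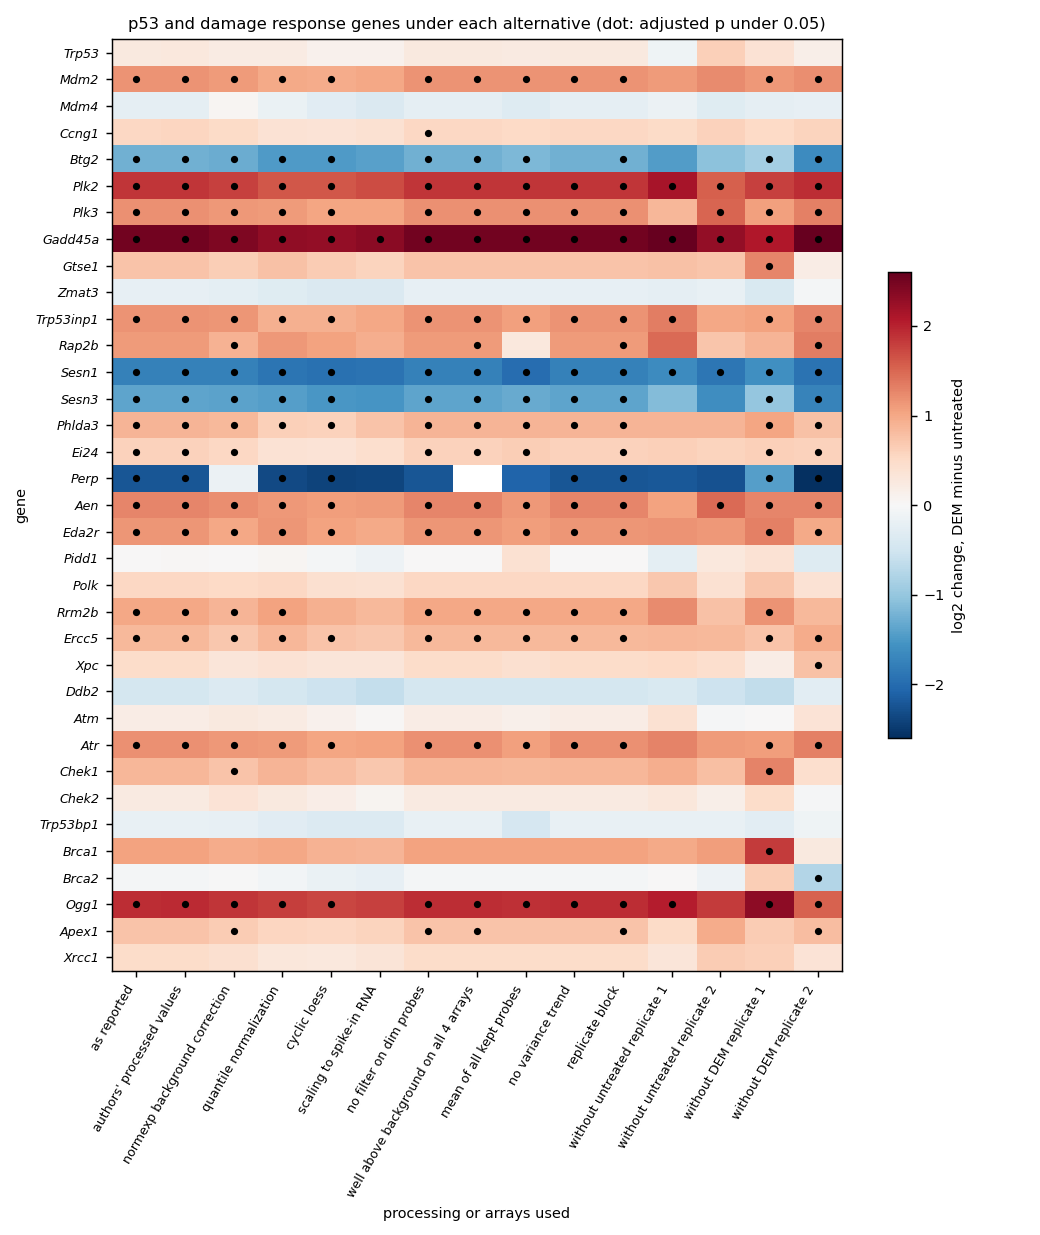
Log2 change of the 35 genes (rows) under each way of processing or each sample left out (columns), with colour for size and direction and dots for an adjusted p under 0.05. Dots thin without untreated 1 or untreated 2, where calls over all genes also fell. With spike-in scaling 1 dot is left (Gadd45a). The direction of the 17 called genes stays, and Perp is blank where it was not measured.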

How the data were processed

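RNA from 2 untreated and 2 DEM-exposed samples was labelled with Cy3 and hybridised to 1 custom Agilent mouse array each. Per the file headers, the deposited spot intensity values came from Agilent Feature Extraction 10.7.3.1, which had already subtracted background; a spot's mark as well above background rested on a multiplier of 13. The authors' deposited series table holds log2 values, which match log2 processed signal minus a constant per array (within 0.01 for at least 99.98% of probes) and served as an alternative. Control spots (1319 per array) and outlier spots were left out, log2 processed signal was centred on each array's 75th percentile, and 31771 of 61177 probes passed the filter, which asked for that mark on 2 or more of the 4 arrays. The brightest probe stood for each gene. Of 66 probes of the 35 genes, 60 were kept. Names came from the RefSeq table of GRCm38.p6; the header names build mm9 but maps no probe, so no probe coordinates are given. DEM was tested against untreated in R 4.3.3 with limma 3.58.1 (lmFit, eBayes with trend, two-sided, Benjamini-Hochberg over all 24658 genes); the number of arrays limits the precision. A gene not well above background in one group has only a bound on its fold. The labels do not state whether replicate numbers pair the samples, and the main fit used no pairing. The difference between the arrays of a group correlated at 0.10 between the groups, which does not settle this. The code was tested on simulated data. All 35 genes are named whatever their result, with up to 3 genes per direction with the smallest p from each related list, and Gclc and Hmox1 as a check of exposure. The 35 genes and all lists were chosen with earlier results of these data known. Alternatives changed the background correction, scaling, probe filter, probe summary, variance trend, replicate block and samples used. Figures were drawn with matplotlib 3.10.9.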

Additional observations from a re-analysis of the deposited data

How the results depend on the processing

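The 35 genes gave 13 higher and 4 lower calls, and all genes 3812 and 2900. Leaving out 1 array at a time gave 4 to 16 higher and 1 to 5 lower calls among the 35, and 644 to 4488 higher and 802 to 3814 lower over all genes. The lowest counts came without an untreated array, which leaves the spread to be taken from the DEM pair, and the lone sample is then assumed to vary like that pair. In the same way, a fit without a DEM array takes its spread from the untreated pair and leaves out the spread between the DEM samples. With spike-in scaling, limma called 1 higher and 0 lower among the 35 (3 higher and 4 lower at an unadjusted p under 0.05) and 354 and 859 over all genes, and, relative to the spike-in RNA, the 75th percentile lay at -2.76 and -3.41 (log2) in untreated and -2.78 and -3.70 in DEM samples; the cause of the lost calls was not tested. Over all genes, cyclic loess gave 2529 higher, normexp 6470 higher and no filter on dim probes 17297 higher (34.8% of 49739 genes, with 15 of the 35 higher). No filter raised the median change of all genes by 0.31, while cyclic loess and spike-in scaling lowered it by 0.15 and 0.16. With the replicate number as a block, 15 of the 35 genes were higher and 4 lower, against 18.1% and 13.7% of all genes. All 17 calls were kept in this limma fit, and Rap2b (adjusted p = 0.0173) and Apex1 (0.0375) were added. All 17 called genes kept their direction under every alternative in which they were measured; Perp was not measured when all 4 arrays had to be well above background. Btg2 was also lost with no variance trend (adjusted p = 0.051). Of the genes that did not pass, 6 changed sign under an alternative, none passing with the other sign. With 1 array left out, the log2 change ranged from -0.103 to 0.629 for Trp53, -0.337 to 0.374 for Pidd1, -0.753 to 0.635 for Brca2, -0.031 to 0.40 for Atm and -0.021 to 0.469 for Chek2. It was 0.053 for Mdm4 with normexp, and -0.056 and -0.137 for Pidd1 with cyclic loess and spike-in scaling; the cause was not tested. The slide or scan as a block was not run, because all arrays share 1 slide and 1 scan. Dim genes are limited by signal over background.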

Other observations

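Motifs other than the p53 decamer were searched on both strands of the same 34 promoter windows of 29 genes, each as the letters given. The cell cycle homology region TTTGAA was in 2 windows (Aen and Ercc5) and in 17.9% of all windows. The FOXO site GTAAACA was in 4 windows (Brca2, Eda2r, Mdm2 and Sesn1) and in 3.65% of all windows. The cAMP response element TGACGTCA was in 3 (Brca2, Btg2 and Plk2) and in 1.79% of all windows. The antioxidant response element TGACNNNGC was in 3 (Brca2, Eda2r and Trp53) and in 12.4% of all windows. The AP-1 site TGANTCA was in 1 (Mdm4) and in 7.81% of all windows, and the ATF4 element TGATGNAA was in 1 (Polk) and in 3.97%. The CCAAT box was in 20 windows and in 37.4% of all windows. These are matches of letters in short windows, and binding was not measured.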
